A study of Arabidopsis thaliana with 6 samples.

Results

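The genes described here are nad4, nad4L, nad7, ccb382 and orfX, which are encoded in the mitochondrial genome of Arabidopsis thaliana. Their probe sets were taken by annotation, as those of the array listed for these genes. The genes themselves were chosen with earlier results of these data known, and the array listed 18 further probe sets with 1 mitochondrial gene. All 5 had a probe set annotated to that gene alone among the 22746 probe sets that are not controls: 244929_at for nad4, 244902_at for nad4L, 244925_at for nad7, 244912_at for ccb382 and 244928_s_at for orfX. All 5 passed the filter on dim probe sets, which kept 11373. Mature pollen was measured on 6 Affymetrix ATH1 arrays, with 2 arrays in each of 3 groups of genetic background Col-0. TF2 is the insertion line SALK_018864, known outside the labels as a line of the pollen transcription factor gene BZIP34, TF1 is the insertion line SAIL_1168_C11, for which the sources used here name no gene, and WT is Col-0 without an insertion. Plants of all groups grew on compost at 21 °C and 75% humidity, each line rests on 1 insertion, and the labels do not say whether the plants were homozygous or whether pollen was pooled. They also do not say whether replicates came from separate plants, so p-values cover no more than the spread between samples, part or all of which can be technical.

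Plant mitochondria keep a small genome that encodes part of the respiratory chain, while most of its subunits are encoded in the nucleus and imported. The nad genes encode subunits of complex I, which passes electrons from NADH to ubiquinone: nad4 and nad4L are part of its proton-pumping membrane arm, and nad7 of its peripheral arm. The gene ccb382, named ccmFN1 in RefSeq, encodes a protein of the pathway that attaches haem to cytochrome c, and orfX, named mttB in RefSeq with tatC as a synonym, encodes a protein related to the bacterial TatC protein translocase. Pollen development is known for its demand on mitochondria, and rearranged mitochondrial genes are a common source of male sterility in crops. Transcripts of plant mitochondria carry no stable poly(A) tail, whereas the one-cycle labelling protocol named in the labels primes on poly(A), so the signal reports only the part of each transcript that was primed.

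Signals are in array intensity units on a linear scale, as deposited, with the same trimmed mean on every array, and precision is limited by how few arrays there are. Median signal per array lay between 33.6 and 42.97. The tables used here hold no present or absent calls. The quartile of all values at the low end, 10.3, served as pseudocount in the tests and is named below as a mark of low signal. Replicate arrays correlated at 0.908 in TF2, 0.917 in TF1 and 0.948 in WT across the probe sets that passed, and such probe sets are not independent. Markers of the pollen vegetative cell, the cell that grows the pollen tube, were bright on every array: their summed signal over 7 probe sets was 35346 to 38807 in TF2, 29399 to 31211 in TF1 and 16359 to 17474 in WT. Markers of leaf and other green tissue had a summed signal over 8 probe sets of 448 to 491 in TF2, 397 to 406 in TF1 and 4742 to 4963 in WT. Without present calls such a sum does not show that each marker was present in the lines. LHCB4.2 read 4.36 and 3.32 in TF2 and 14.8 and 7.51 in TF1, whereas RCA read 132 and 122 in TF2 and 80.8 and 106 in TF1. Control probe sets near the 3′ end of housekeeping transcripts were lower in the lines: one for GAPDH read 92.6 and 139 in TF2, 229.6 and 225 in TF1, and 794 and 719 in WT, and one for actin read 93.9 and 84.6 in TF2, 157 and 190.4 in TF1, and 624 and 636 in WT. The 5′ control of the same GAPDH series read 49.2 and 31.2 in TF2, 71.5 and 132 in TF1, and 158 and 137 in WT. The 5′ controls of actin ran both ways. That of the same series was higher in TF2, at 229 and 349, with 102 and 172 in TF1 and 104 and 84.8 in WT. Another read 90.6 and 64.1 in TF2, 55.7 and 128 in TF1, and 131 and 201 in WT.

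nad4 was far lower in both lines than in WT pollen. Its signal was 74.2 and 97.6 in TF2, 192 and 202 in TF1, and 951 and 1009.6 in WT. The groups did not overlap, and each TF2 array lay below each TF1 array. The mean was 85.9 ± 16.6 in TF2, 197 ± 6.71 in TF1 and 981 ± 41.1 in WT (SD, n = 2 arrays each). As a rank on its own array, which scaling does not change, nad4 lay at the 73.0 and 78.9 percentile of all probe sets in TF2, at the 88.2 and 88.8 percentile in TF1, and at the 96.6 and 96.9 percentile in WT.

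nad4L, a small subunit gene of the membrane arm, was also low in both lines. It read 41.3 and 26.6 in TF2, 29.2 and 35.1 in TF1, and 274 and 161 in WT. Both lines lay below both WT arrays, and the arrays of TF2 lay on either side of those of TF1. Its percentile was 54.4 and 42.2 in TF2, 45.9 and 48.6 in TF1, and 89.7 and 84.3 in WT, so in the lines it stood near the middle of all probe sets on the array.

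nad7, by contrast, was dim in every group and its groups overlapped. It read 43.7 and 9.60 in TF2, 53.4 and 39.3 in TF1, and 32.1 and 75.8 in WT. The WT arrays spanned the TF1 values, and the replicate arrays of TF2 differed more than the means of any pair of groups. One TF2 array lay below the pseudocount.

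ccb382 was lower in both lines. It read 82.7 and 95.1 in TF2, 145 and 112 in TF1, and 269.9 and 366 in WT. The groups did not overlap, with TF2 at the bottom. Its percentile was 76.0 and 78.2 in TF2, 85.5 and 81.6 in TF1, and 89.6 and 92.4 in WT.

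orfX was split by its replicates. It read 16.5 and 95.1 in TF2, 68.1 and 70.3 in TF1, and 112 and 80.9 in WT. Both TF1 arrays lay below both WT arrays, whereas the TF2 arrays spanned all others except WT replicate 1. The orfX probe set carries the suffix that Affymetrix gives to probes shared by more than 1 transcript. The probe sets tested below for ccb452, nad6 and nad5 carry it too. A large copy of the mitochondrial genome lies in a nuclear chromosome of Col-0, so signal of these 5 genes and of its near-identical copies cannot be told apart here.

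**Figure D1:**
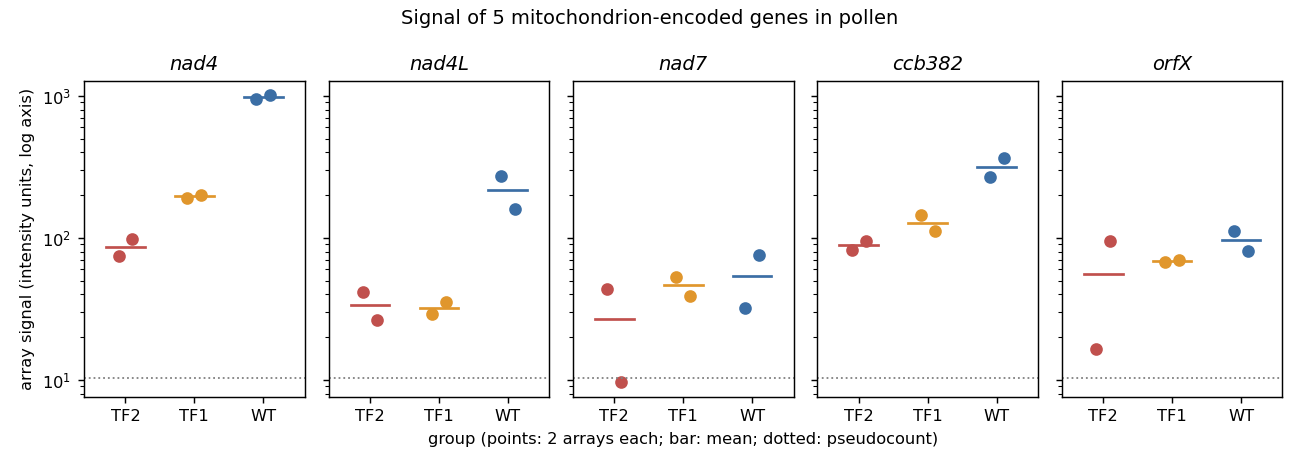
Signal of nad4, nad4L, nad7, ccb382 and orfX on each array, in intensity units on a log axis, with 2 points per group (TF2, TF1, WT), a bar at the group mean and a dotted line at the pseudocount of 10.3. nad4 stands at 74.2 and 97.6 in TF2, 192 and 202 in TF1 and 951 and 1009.6 in WT, while the groups of nad7 overlap.

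The first comparison asked how TF1 pollen differed from WT pollen, fitted in limma over all kept probe sets as log2 of signal plus pseudocount, a scale that understates the change of dim genes. nad4L changed by −2.38 log2 units in TF1 (SE 0.44, adjusted p = 0.00201), a signal 6.76-fold lower than in WT. nad4 changed by −2.26 (SE 0.20, adjusted p = 2.04e-05), 4.98-fold lower in signal. ccb382 changed by −1.24 (SE 0.27, adjusted p = 0.00533), 2.49-fold lower in signal. The other two did not pass the threshold of 0.05: orfX stood at −0.41 with a 95% interval of −1.66 to 0.83 (adjusted p = 0.675), and nad7 at −0.11 with an interval of −1.56 to 1.35 (adjusted p = 0.942). So 3 of 5 genes fell and 0 rose. Of all tested probe sets 21.6% were called, 9.64% lower and 11.9% higher. The median change was −1.24 over the 5 genes, against −0.02 over all probe sets. In 4 of 5 genes both TF1 arrays lay below both WT arrays, which held for 31.3% of all probe sets.

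In TF1 the calls of 2 genes rested on the pair of WT arrays. Where an array is left out, its group holds 1 array, and the p-value assumes that this array varies like those of the other groups. Without WT replicate 1 the adjusted p of nad4L in limma was 0.0907 (log2 change −2.02), and without WT replicate 2 that of ccb382 was 0.116 (−1.03). The call of ccb382 was also lost without the intensity trend of the variance (adjusted p = 0.0689). Over all alternatives the adjusted p ran from 0.00265 to 0.116 for ccb382 and from 0.000572 to 0.0907 for nad4L.

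The second comparison set TF2 pollen against the same WT arrays, so both comparisons share their controls. nad4 changed by −3.37 log2 units in TF2 (SE 0.20, adjusted p = 3.17e-07), and its signal was 11.4-fold lower than in WT. nad4L changed by −2.34 (SE 0.44, adjusted p = 0.00144), 6.40-fold lower in signal, and ccb382 by −1.71 (SE 0.27, adjusted p = 0.000381), 3.58-fold lower in signal. orfX stood at −0.99 (95% interval −2.23 to 0.25, adjusted p = 0.220) and nad7 at −0.88 (interval −2.34 to 0.57, adjusted p = 0.356). Again 3 of 5 genes fell and 0 rose. Of all tested probe sets 30.8% were called, 16% lower and 14.8% higher. The median change was −1.71, against 0.05 over all probe sets. Both TF2 arrays lay below both WT arrays in 3 of 5 genes and in 31.8% of all probe sets. The 95% interval of nad4, −3.82 to −2.93, did not overlap that of ccb382, −2.30 to −1.13, but the difference between these genes was not tested.

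A single array decided several of these values. The fitted change of orfX in TF2 was −1.98 without TF2 replicate 2 (adjusted p = 0.00940) and −0.0053 without TF2 replicate 1 (adjusted p = 0.993). Without WT replicate 1 the call of nad4L in TF2 was lost (adjusted p = 0.0719, log2 change −1.97), at the end of a range that began at 0.000418.

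The third comparison set TF2 against TF1, which also tests whether their changes from WT were unequal. nad4 was lower in TF2, by −1.12 log2 units (SE 0.20, 95% interval −1.56 to −0.67, adjusted p = 0.00763), and its signal was 2.29-fold lower than in TF1. It was the 1 of 5 genes called. Of all tested probe sets 4.65% were called, 3.8% lower and 0.853% higher. Both TF2 arrays lay below both TF1 arrays in 2 of 5 genes, nad4 and ccb382, and in 22.6% of all probe sets. That call was lost without the intensity trend (adjusted p = 0.112), with these groups fitted alone (0.0957), without TF1 replicate 1 (0.0549) and without TF1 replicate 2 (0.0706), over a range of adjusted p from 0.00537 to 0.112. nad4L stood at 0.04 with a 95% interval of −0.92 to 1.00. ccb382 stood at −0.47 (interval −1.06 to 0.11, adjusted p = 0.384), orfX at −0.58 (interval −1.82 to 0.66) and nad7 at −0.78 (interval −2.23 to 0.68). The order of the group means was therefore TF2, then TF1, then WT in nad4, where each neighbouring pair differed. In ccb382 and nad4L the difference of TF2 and TF1 did not pass the threshold.

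**Figure D2:**
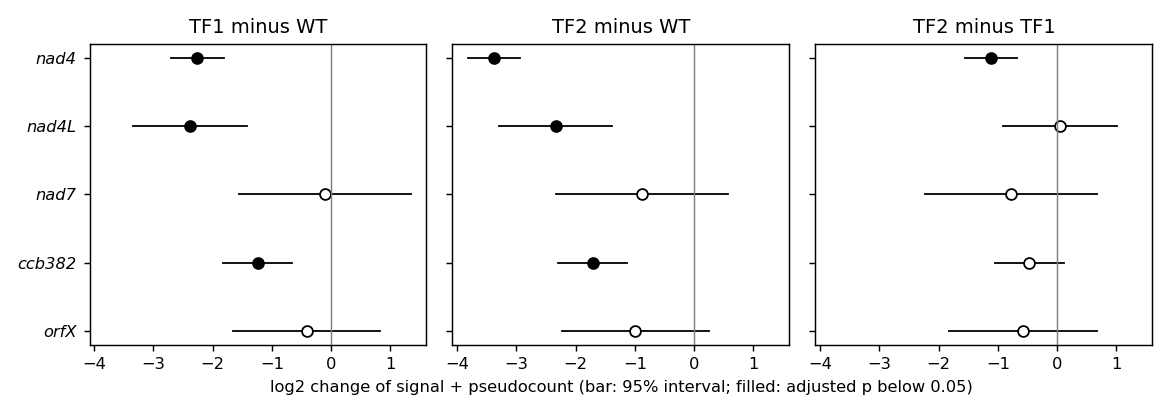
Log2 change of signal plus pseudocount for each of the 5 genes in TF1 minus WT, TF2 minus WT and TF2 minus TF1, with 95% intervals from limma and filled points where the adjusted p was below 0.05. nad4, nad4L and ccb382 are filled in both comparisons with WT, at −2.26, −2.38 and −1.24 in TF1 and −3.37, −2.34 and −1.71 in TF2, and nad4 alone is filled between the lines.

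The summed signal of the 5 genes was 258 and 324 in TF2, 487 and 458 in TF1, and 1639.7 and 1694 in WT. That is 15.5% and 19.4% of the WT mean in TF2, and 29.2% and 27.5% in TF1. nad4, with a mean of 981 in WT, makes up most of the WT sum, so these percentages mainly follow nad4 and say little of nad7 and orfX, which were not called. Markers of leaf and green tissue moved with these falls: 7 of 8 fell in TF1 and 7 of 8 in TF2, with LHCB4.3 the exception, and their sum was 9.23% and 10.1% of the WT mean in TF2 and 8.18% and 8.37% in TF1. The 7 vegetative cell markers were all higher in both lines, at 229% and 209% of the WT mean in TF2 and 184% and 174% in TF1. After quantile normalization 3 of 7 rose in TF2 and 2 of 7 in TF1, whereas after median centring 7 of 7 rose in both lines. With the signals as deposited 9.64% of all tested probe sets were called lower in TF1 and 16% in TF2, with 11.9% and 14.8% higher. Of 5 sperm markers listed 1 had a probe set, MGH3, which rose by 1.03 in TF1 and 0.99 in TF2 in limma (adjusted p = 0.000379 and 0.000251). After quantile normalization its changes were 0.91 and 0.83. The part of green tissue RNA and of the GAPDH, actin, vegetative cell and MGH3 signals in the falls of nad4, nad4L and ccb382 was not tested. In such bulk samples fewer cells of a type and less RNA per cell cannot be told apart.

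In TF2 minus TF1 limma called 0 of 8 leaf markers, with 2 at an unadjusted p under 0.05. Their changes ran both ways, from −0.68 for LHCB4.1 (SE 0.52) to 1.12 for SBPASE (SE 0.38), with a median of −0.09, and they were not tested against that of nad4.

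**Figure D3:**
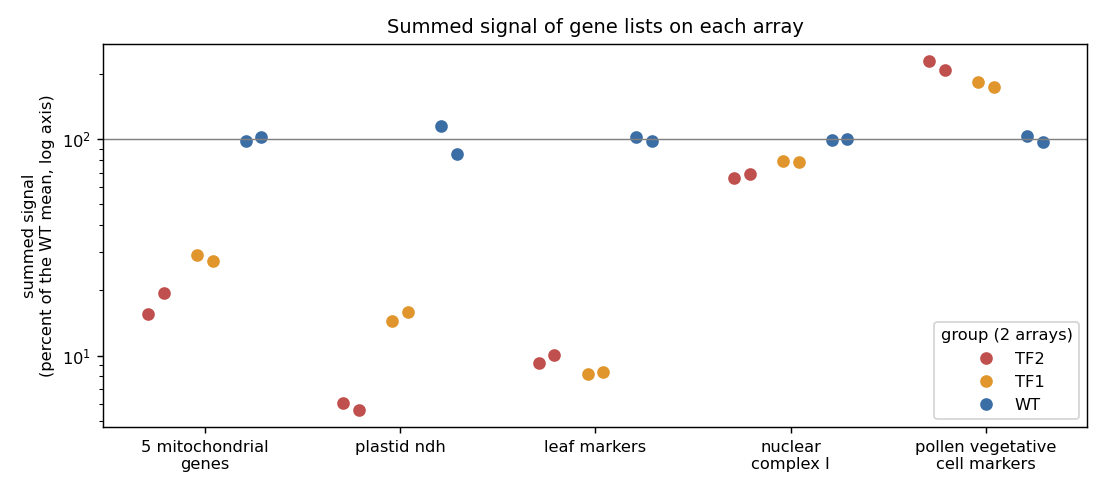
Summed signal of each gene list on each array as a percent of the WT mean, on a log axis, with 2 points for each of TF2, TF1 and WT. The 5 mitochondrial genes lie at 15.5% and 19.4% in TF2 and 29.2% and 27.5% in TF1, leaf markers at 8.18% to 10.1% in both lines, and vegetative cell markers above WT.

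Other genes of the mitochondrial genome were set beside these 5. The array listed 18 further probe sets with 1 mitochondrial gene, for 11 genes, and 10 of them passed the filter on dim probe sets. Since dim probe sets could pass only through the group where they were bright, their counts are a description. In TF1 5 of the 10 fell and 0 rose: cox1 and cox2, which encode subunits of cytochrome c oxidase, ccb452, another gene of cytochrome c maturation, and 2 of the probe sets listed for nad1, a membrane subunit of complex I. The calls of those nad1 probe sets in TF1 were lost without either WT array. In TF2 8 of 10 fell and 0 rose, and the others were probe sets of nad1. Over all tested probe sets 9.64% were called lower in TF1 and 16% in TF2. The median change of the 10 was −1.53 in TF1 and −2.12 in TF2, set against −1.24 and −1.71 for the 5 genes above.

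The cytochrome c oxidase genes were low on all 4 line arrays. cox1 read 66.3 and 125 in TF2, 68.6 and 110 in TF1, and 632 and 704 in WT. Its change was −2.80 in TF1 (adjusted p = 7.85e-05) and −2.74 in TF2 (adjusted p = 3.34e-05). cox2 read 9.52 and 32.6 in TF2, 45.7 and 66.5 in TF1, and 354 and 274 in WT. It changed by −2.30 in TF1 (adjusted p = 0.00272) and by −3.46 in TF2 (adjusted p = 8.61e-05), and its call in TF1 was lost without WT replicate 1 (0.0799) and without the trend (0.0546), over a range of adjusted p from 0.000175 to 0.0799.

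Among the genes of cytochrome c maturation, ccb382 was joined by ccb452, named after its values were seen, which read 64.0 and 86.5 in TF2, 58.3 and 106 in TF1, and 327 and 293 in WT. ccb452 changed by −1.84 in TF1 and −1.91 in TF2 (adjusted p = 0.00141 and 0.000654), and its call in TF1 was lost without the trend (adjusted p = 0.0510). ccb206, which encodes a transporter subunit of that pathway, read 23.6 and 25.6 in TF2, 25.03 and 43.01 in TF1, and 101 and 84.5 in WT. Its change was −1.56 in TF2 (adjusted p = 0.0407) and −1.24 in TF1 (adjusted p = 0.123), and the call in TF2 was lost in 9 of 14 alternatives. The remaining gene of this kind with a probe set, ccb203, read 8.49 to 33.1 over all arrays and did not pass the filter.

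Further complex I genes of the mitochondrion fell in TF2 and did not pass in TF1. The genes nad5, nad6 and nad9, named after their values were seen, changed by −2.38, −2.01 and −2.22 in TF2 (adjusted p = 0.00954, 0.00469 and 0.0242) and by −1.35, −1.29 and −1.58 in TF1 (adjusted p = 0.144, 0.0637 and 0.123). The calls of all 3 in TF2 were lost when either WT array was left out. nad9 read 79.6 and 6.04 in TF2, and its change there was −0.99 without TF2 replicate 2 (adjusted p = 0.119) and −3.45 without TF2 replicate 1, with the call lost in 5 of 14 alternatives. The change of nad5 in TF2 ran from −3.15 to −1.61 with 1 array left out. It is that of probe set 257338_s_at, which read 4.44 and 32.5 in TF2. The other nad5 probe set, 257337_at, did not pass the filter. It read 1.94 and 16.0 in TF2, 24.1 and 7.86 in TF1, and 102 and 85.0 in WT. In TF1 nad6 and nad9 were called in 4 of 14 alternatives each and nad5 in 2. In TF2 minus TF1 none of the 10 probe sets was called in limma, with 1 at an unadjusted p under 0.05. The largest size there was that of cox2, at −1.17 (adjusted p = 0.179). On the mitochondrial genome in RefSeq (TAIR10.1), nad4 and orfX are neighbours among the coding genes, and nad7 lies between nad5 and atp8. Of these neighbours nad4 was called in both lines and orfX in neither, and the difference between their changes was not tested.

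**Figure D4:**
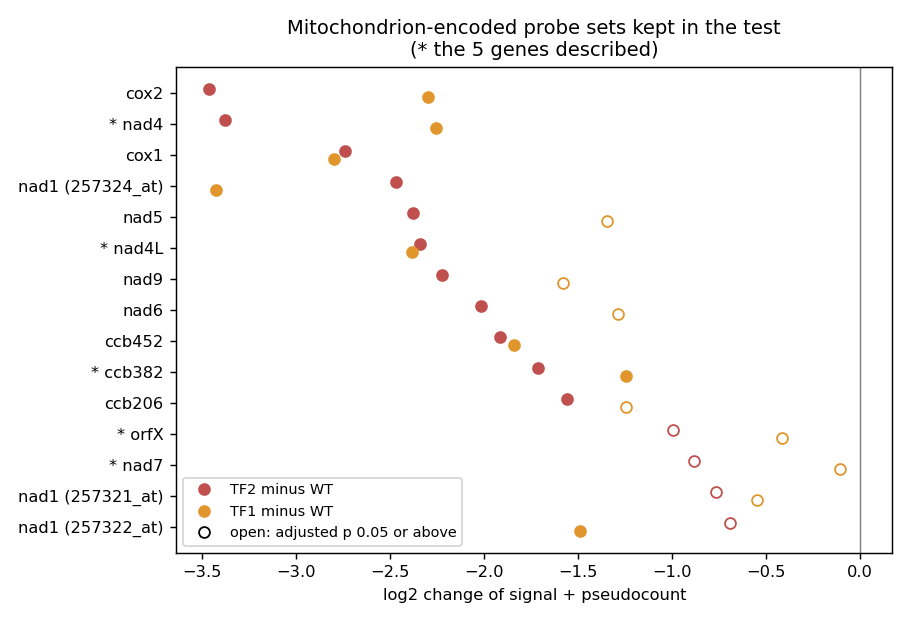
Log2 change against WT of the 15 mitochondrion-encoded probe sets kept in the test, for TF2 and TF1, filled where the adjusted p was below 0.05. Every value shown lies below 0, from −3.46 for cox2 in TF2 to −0.11 for nad7 in TF1, and nad7 and orfX are open in both lines. Probe sets that did not pass the filter are not shown. Among them 257327_at of nad1 and 257331_at of nad2 were brighter in the lines than in WT.

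Complex I also needs subunits encoded in the nucleus, of which 13 of 25 listed genes had a probe set of their own and all 13 passed the filter. In TF1 2 of these fell and 0 rose, AT3G12260 and AT2G20360 (−0.78, adjusted p = 0.0487, named after its values were seen), and in TF2 8 fell and 0 rose, with a median change of −0.60 and −1.11. Their summed signal was 66.4% and 68.8% of the WT mean in TF2, and 78.9% and 78.7% in TF1. Between the lines 1 of 13 was called in limma, AT5G18800, which was lower in TF2 by −2.19 (adjusted p = 0.00973). The alternatives were not run for that difference. Of all tested probe sets 9.64% were called lower in TF1, 16% in TF2 and 3.8% in TF2 minus TF1. The counts of this list were not tested against these shares. The lowest changes of the list in TF2 were those of AT5G18800, at −3.28 (adjusted p = 7.87e-05), and AT3G12260, at −2.50 (adjusted p = 0.000948). AT3G12260 had the lowest change in TF1, at −1.79 (adjusted p = 0.0123), where its arrays read 153 and 54.2. Without TF1 replicate 2 it stood at −1.12 (adjusted p = 0.126), and the call was lost in 4 of 14 alternatives. It was followed by AT5G47890 at −1.26 (adjusted p = 0.123). AT5G11770 stood at the other end, at 0.18 in TF1 and 0.17 in TF2 (adjusted p = 0.390 and 0.349), with AT3G06310 at 0.22 in TF1 and AT3G03100 at −0.05 in TF2. FRO1, a complex I subunit gene known for its frostbite mutant and named after its values were seen, read 85.7 and 76.5 in TF2, 126 and 149 in TF1, and 265 and 203 in WT, and changed by −1.41 in TF2 (adjusted p = 0.00169) and −0.72 in TF1 (adjusted p = 0.0834).

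Cytochrome c, the protein that the pathway of ccb382 equips with haem, is encoded by a pair of nuclear genes with unlike values. CYTC-1 read 150 and 134 in TF2, 318 and 328 in TF1, and 972 and 940 in WT. It changed by −2.66 in TF2 (adjusted p = 4.73e-07) and by −1.53 in TF1 (adjusted p = 8.21e-05), and was lower in TF2 than in TF1 by −1.13 (adjusted p = 0.00234). For the difference between the lines the alternatives were not run. CYTC-2 read 1049 and 951 in TF2, 956 and 1062 in TF1, and 1041 and 810 in WT. Its change was 0.12 in TF2 and 0.13 in TF1 (adjusted p = 0.601 and 0.607), and turned below 0 after quantile normalization. The difference between the changes of CYTC-1 and CYTC-2 was not tested.

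Of 14 measured nuclear genes of complexes II, III and IV and cytochrome c, 4 fell in TF1 and 8 in TF2, while 0 rose in TF1 and 1 rose in TF2. Over all tested probe sets 9.64% were called lower in TF1 and 16% in TF2. The 4 genes that fell in TF1 were CYTC-1, AT3G27240, AT2G47380 and MPPBETA. Of these, AT2G47380 (−0.78, adjusted p = 0.00581 in limma) and MPPBETA (−0.70, adjusted p = 0.0205) were named after their values were seen. The alternatives were not run for AT2G20360 and AT2G47380. AT3G27240 changed by −0.90 in TF1 (adjusted p = 0.0162) and −1.40 in TF2 (adjusted p = 0.000673). In TF1 the call of AT3G27240 was lost in 6 of 14 alternatives and that of MPPBETA in 5. SDH2-1, which encodes the iron-sulphur subunit of succinate dehydrogenase, rose by 0.46 in TF2 (adjusted p = 0.0246), a call lost after quantile normalization (adjusted p = 0.261) and in 4 other alternatives. AT1G51980 stood at 0.18 in TF1 and −0.09 in TF2. Both measured nuclear genes of mitochondrial ATP synthase fell in TF2, AT1G51650 by −1.10 and AT5G47030 by −0.57 (adjusted p = 0.00587 and 0.0250), and in TF1 AT1G51650 fell (−0.81, adjusted p = 0.0407), a call lost in 8 of 14 alternatives. The call of AT5G47030 in TF2 was lost in 5.

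Plant mitochondria also hold enzymes that bypass complex I. Of 13 genes listed for alternative respiration 5 had a probe set and 3 passed the filter. NDB2, an NADH dehydrogenase of the inner membrane that pumps no protons, fell by 0.96 in TF2 (adjusted p = 0.0154) and stood at −0.51 in TF1 (adjusted p = 0.210). The call in TF2 was lost in 5 of 14 alternatives, with adjusted p from 0.0122 to 0.130. None of the 3 was called in TF1 in limma, with 1 at an unadjusted p under 0.05. Of 17 genes listed for mitochondrial transcription and intron splicing, 6 had a probe set and 2 passed the filter, and limma called 0 in either line, with 0 at an unadjusted p under 0.05. The 1 measured nuclear gene of cytochrome c maturation, CCMH, read 5.20 to 37.3 and did not pass.

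The plastid has its own relatives of the nad genes, the ndh genes, whose products form a similar complex in the thylakoid membrane. Of 10 with a probe set, 9 passed the filter, and these 9 fell in TF1 and in TF2, with a median of −2.45 and −4.13. Some passed only through their bright WT arrays, such as ndhJ, at 3.36 and 6.49 in TF2, 10.9 and 18.7 in TF1, and 387 and 361 in WT, so this count is a description too. ndhJ changed by −3.95 in TF1 and −4.66 in TF2, sizes that depend on the pseudocount, since both TF2 arrays lay below it. With the pseudocount at the median signal its change in TF2 was −3.28, against −3.86 for ndhD and −3.56 for ndhG. The smallest changes in size were those of ndhG and ndhK in TF1, at −1.67 and −1.76, and of ndhK and ndhA in TF2, at −1.71 and −2.40. In TF1 the call of ndhG was lost in 4 of 14 alternatives and that of ndhK in 3. ndhD changed by −3.10 in TF1 and ndhG by −4.54 in TF2. Between the lines 5 of 9 ndh genes were lower in TF2 and 0 were higher, and the alternatives were not run for these genes one by one there. Over all tested probe sets 9.64% were called lower in TF1, 16% in TF2 and 3.8% in TF2 minus TF1. The sum of the ndh signals was 6.05% and 5.60% of the WT mean in TF2, and 14.5% and 15.9% in TF1.

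**Figure D5:**
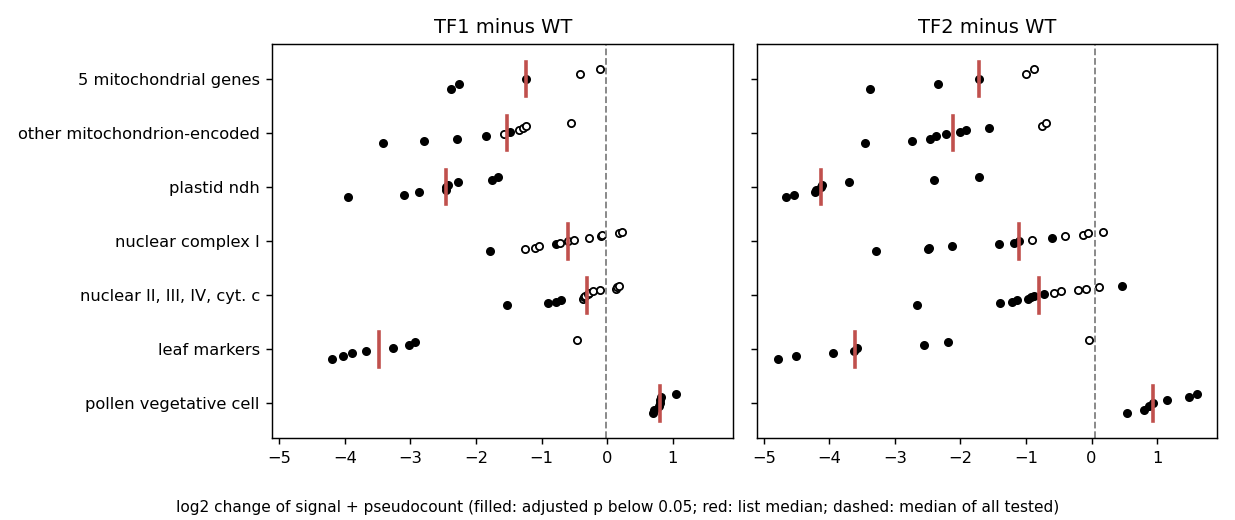
Log2 change of each kept probe set by gene list in TF1 minus WT and TF2 minus WT, with filled points where the adjusted p was below 0.05, a red line at the list median and a dashed line at the median of all tested probe sets. Medians for the 5 mitochondrial genes are −1.24 and −1.71, for plastid ndh genes −2.45 and −4.13, for nuclear complex I genes −0.60 and −1.11, and for leaf markers −3.47 and −3.60.

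The genes most like each of the 5 were sought among 6275 kept probe sets with 1 gene, by the root mean square difference between centred log2 profiles over the 6 arrays. For nad4 the nearest were 3 plastid genes: atpB, a subunit gene of ATP synthase, at 0.16 log2 units, matK at 0.17 and rpoC1, a subunit gene of the plastid RNA polymerase, at 0.20. For example, atpB read 214 and 233 in TF2, 387 and 399 in TF1, and 2239.5 and 2404 in WT. For nad4L they were the plastid gene ndhA at 0.24 and the nuclear genes SGT1A at 0.26 and AT2G45180 at 0.27. For ccb382 they were the nuclear genes RD2 at 0.09, AT3G26510 at 0.10 and AT3G09200 at 0.12. For nad7 they were AT2G34540 at 0.15, AT2G18910 at 0.21 and UGT80B1 at 0.22, and for orfX AT3G45900 at 0.09, AT3G15350 at 0.13 and AT3G10190 at 0.15. Among the 5 themselves the nearest pairs were nad4 with nad4L and nad4L with ccb382, both at 0.62, and the farthest was nad4 and nad7 at 1.25. Each of the 5 thus lay nearer to genes of this far larger pool than to any other of the 5.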

How the data were processed

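Per the labels, total RNA of mature pollen was labelled with biotin by the one-cycle protocol and hybridised to 6 arrays. The authors deposited a linear signal intensity for each probe set on each array. The submitters' processing notes name MAS5 and GCOS, and the sources used here give neither version nor setting. The mean after trimming 2% at each end was 100.0 on every array, a scaling kept here. Probe sets with 1 gene in the platform annotation numbered 13513, with several 503 and with none listed 8730, and 64 controls stayed out. Mitochondrial genes were matched to RefSeq by symbol or synonym.

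Signals were tested as log2(signal + 10.3) in limma 3.58.1 under R 4.3.3, with lmFit over all 6 arrays and eBayes with an intensity trend. Kept were the 11373 probe sets whose mean log2 value reached the median. P-values are two-sided and adjusted by Benjamini-Hochberg over all kept probe sets, with 0.05 as threshold. Exact permutation of 2 arrays against 2 cannot go below p = 0.333 and was not run. The fit was run on simulated data with independent noise and planted changes, which checks the fit itself and does not test the calls reported here.

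The genes and lists were chosen with earlier results of these data known. The result of each list stands in the report. Named genes were the 5 genes, for each list all members called where these were at most 4 and otherwise the 2 highest and 2 lowest changes per comparison with WT, and for likeness the 3 nearest probe sets. Alternatives changed the pseudocount, filter, normalization, trend, groups fitted, replicate block and arrays. They were also run for the named list genes, a choice made after seeing the data, but only in the comparisons with WT. Calls of single list genes in TF2 minus TF1 therefore have no such check.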

Additional observations from a re-analysis of the deposited data

Results flagged for a closer look

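The change of nad4 from WT differed between the lines by the fitted test of that difference, at −1.12 log2 units for TF2 minus TF1 in limma (adjusted p = 0.00763). Both TF2 arrays, at 74.2 and 97.6, lay below both TF1 arrays, at 192 and 202. Groups of 2 arrays are too small for a test of single outlying samples.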

How the results depend on the processing

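Of 15 values of the 5 genes over 3 comparisons, 7 were called and 3 of these stayed called in all 14 alternatives: nad4 in TF1 and in TF2, and ccb382 in TF2. The count of the 5 genes called in TF2 minus TF1 was 0 without the intensity trend and 0 with only these groups fitted, and lay between 0 and 1 when single arrays were left out. Counts over all probe sets without the trend were 456 in TF1 minus WT, 2185 in TF2 minus WT and 175 in TF2 minus TF1, against 2453, 3506 and 529, and with only these groups fitted the last was 252. With single arrays left out they ran from 1276 to 2815, 2126 to 3511 and 211 to 615. Deviations of same-numbered arrays correlated at 0.0079, 0.0216 and 0.0020, so replicate numbers gave no sign of a shared shift. These values cannot show whether same-numbered arrays were handled together. With the replicate block the counts were 2521, 3558 and 593, and the block changed no call of the 5 genes, while that of ccb206 in TF2 was lost (adjusted p = 0.0521 in limma). The cause of these shifts was not tested. Median centring moved the median change of all probe sets to 0.14 in TF1 and 0.16 in TF2, from −0.02 and 0.05, and the 3 calls in each line held. With it 1 of the nuclear complex I genes fell in TF1, against 2, and 2 of the genes of complexes II to IV, against 4, while the ATP synthase genes called were 0 of 2 in TF1 and 1 of 2 in TF2.

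Signs turned only in values that were not called. Quantile normalization gave 0.072 for nad7 in TF1, −0.19 and −0.21 for AT5G11770 in TF1 and TF2, −0.044 for SDH2-1 in TF1, −0.12 and −0.17 for CYTC-2, and 0.086 for AT1G51980 in TF2. Median centring gave 0.047 for nad7 in TF1, 0.067 and 0.069 for AT3G03100 in TF1 and TF2, and 0.028 for AT1G51980 in TF2. Leaving out single arrays gave −0.62 to 0.40 for nad7 in TF1, −0.15 to 0.60 and −2.15 to 0.34 for AT3G06310 in TF1 and TF2, −0.0065 to 0.37 and −0.28 to 0.0995 for AT1G51980, −0.046 to 0.31 and −0.059 to 0.30 for CYTC-2, −0.15 to 0.050 for AT3G03100 in TF2, −0.20 to 0.28 for nad4L and −1.57 to 0.41 for orfX in TF2 minus TF1. Of 39 calls of named list genes in the comparisons with WT, 17 held in all 14 alternatives. Without present calls, the dim values of nad7 and orfX have no measured distance to background.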

Other observations

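Of the 7 probe sets listed for nad1 only 257327_at was brighter in the lines than in WT. In all the others both arrays of each line lay below both WT arrays. Probe set 257324_at read 10.5 and 39.01 in TF2, 7.02 and 5.46 in TF1, and 153 and 182 in WT, whereas 257327_at read 22.2 and 25.7 in TF2, 41.3 and 18.8 in TF1, and 8.23 and 2.70 in WT. The 1 probe set of nad2, 257331_at, was also brighter in the lines, at 46.5 and 68.6 in TF2 and 30.5 and 25.5 in TF1, against 6.99 and 4.44 in WT. Neither 257327_at nor 257331_at passed the filter, so these were not tested. nad1, nad2 and nad5 are assembled from separate transcripts by trans-splicing, and the sources used here do not say which part of each gene these probes meet.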
